A study of Rattus norvegicus with 6 samples.

Results

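The 44 genes described here act when a cell divides: they drive its entry into mitosis, attach and separate its chromosomes, and cut the cell apart. They were chosen by name, and measured through array probes whose RefSeq accession belongs to the gene. Of the 44 genes, 36 had such a probe among the 15443 genes named on the array. A test needed a probe that the scanner software scored well above background on every array of the normal or of the fibrosis group. With spots that the scanner software had marked as uneven or as outliers left out, 30 members were tested among 7433 genes in all, and with marked spots kept, 34 among 10864. Anln, Bub1b, Cdc25c, Cenpe, Kif4a, Melk, Ncapg and Top2a had no matched probe, and Aurkb and Smc2 had probes too dim to be tested.

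The study measured total RNA from liver blocks of 6 rats on 1-colour Agilent arrays, 1 array per animal. The groups were normal liver (n = 3) and fibrotic liver after bile duct ligation (n = 3), an operation that ties off the duct so that bile cannot leave the liver. Strain, sex, age, time after ligation and whether the normal rats had a sham operation are not given in the sources used here. Values below are log2 signal relative to the 75th percentile of the same array, and differences are fibrosis minus normal with their standard error. Calls were made in limma, a linear model over all genes that shares information on spread, and needed an adjusted p below 0.05. Array values and tests are given with marked spots kept, where every member has a value on all 6 arrays, and the other setting is named where the call differs.

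Mitosis is driven by cyclin B bound to the kinase CDK1. Kinetochores then tie chromosomes to spindle microtubules, a checkpoint holds the cell until all are attached, and the anaphase-promoting complex (APC/C) marks cyclin B and securin for destruction so that sister chromatids part. A ring of actin and a bundle of microtubules at the cell's middle finish the division. Most hepatocytes of a healthy adult liver are out of the cell cycle and re-enter it after loss of liver tissue or injury, and bile duct cells multiply after the duct is tied. Many of these genes are switched on together late in the cycle through promoter elements named CHR (cell cycle genes homology region, read by the MuvB complex with B-MYB and FOXM1) and CCAAT boxes (read by NF-Y).

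RefSeq promoter windows of the GRCr8 assembly, 250 bases before to 50 after each gene start, were searched for these elements. The 38 windows found belong to 37 members, since Kif2c has 2 starts, and 7 members had none in the table used here. The windows printed here are those of members that the results turn on: Cdk1 (chr20:19265043-19265342, plus strand), Ccnb2 (chr8:79981609-79981908, minus strand), Plk1 (chr1:186147408-186147707, plus strand) and Kif23 (chr8:71320535-71320834, minus strand), which rose and hold TTTGAA, Ccnb1 (chr2:33655176-33655475, minus strand), which rose and does not, and Cdc25b (chr3:138859923-138860222, plus strand), the member that fell. Each is written 5′ to 3′ along the gene, and capitals mark the letters TTTGAA, the variant spelled TTCGAA and the box CCAAT on either strand, so that TTCAAA stands for the first and ATTGG for the box, read on the opposite strand.
Cdk1: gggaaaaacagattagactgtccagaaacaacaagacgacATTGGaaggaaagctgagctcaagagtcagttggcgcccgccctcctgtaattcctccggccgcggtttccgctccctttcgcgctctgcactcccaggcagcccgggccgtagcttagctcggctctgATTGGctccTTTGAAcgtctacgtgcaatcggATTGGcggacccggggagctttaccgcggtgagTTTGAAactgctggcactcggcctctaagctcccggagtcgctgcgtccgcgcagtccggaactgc
Ccnb2: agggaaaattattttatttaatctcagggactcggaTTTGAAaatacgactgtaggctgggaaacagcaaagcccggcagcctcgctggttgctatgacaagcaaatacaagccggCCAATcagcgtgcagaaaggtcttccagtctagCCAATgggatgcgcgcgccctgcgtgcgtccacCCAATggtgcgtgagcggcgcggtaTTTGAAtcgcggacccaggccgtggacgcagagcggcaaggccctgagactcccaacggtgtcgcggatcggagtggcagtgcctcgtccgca
Plk1: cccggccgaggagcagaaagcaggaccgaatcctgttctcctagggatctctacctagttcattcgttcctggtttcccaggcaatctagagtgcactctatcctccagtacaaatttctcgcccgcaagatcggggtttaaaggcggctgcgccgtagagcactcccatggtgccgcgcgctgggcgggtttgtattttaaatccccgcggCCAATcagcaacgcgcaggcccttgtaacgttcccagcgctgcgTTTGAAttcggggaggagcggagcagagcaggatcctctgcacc
Kif23: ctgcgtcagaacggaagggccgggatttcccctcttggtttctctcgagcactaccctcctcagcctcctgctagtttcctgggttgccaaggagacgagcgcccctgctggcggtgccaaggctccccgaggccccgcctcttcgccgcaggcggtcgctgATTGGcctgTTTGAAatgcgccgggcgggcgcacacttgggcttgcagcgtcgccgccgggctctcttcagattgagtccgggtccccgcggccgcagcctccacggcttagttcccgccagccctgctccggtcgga
Ccnb1: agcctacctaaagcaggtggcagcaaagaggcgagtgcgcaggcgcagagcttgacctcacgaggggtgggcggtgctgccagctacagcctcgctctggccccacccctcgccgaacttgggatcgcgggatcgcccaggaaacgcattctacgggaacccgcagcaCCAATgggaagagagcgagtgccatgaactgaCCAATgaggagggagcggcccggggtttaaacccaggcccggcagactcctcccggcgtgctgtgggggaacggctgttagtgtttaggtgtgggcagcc
Cdc25b: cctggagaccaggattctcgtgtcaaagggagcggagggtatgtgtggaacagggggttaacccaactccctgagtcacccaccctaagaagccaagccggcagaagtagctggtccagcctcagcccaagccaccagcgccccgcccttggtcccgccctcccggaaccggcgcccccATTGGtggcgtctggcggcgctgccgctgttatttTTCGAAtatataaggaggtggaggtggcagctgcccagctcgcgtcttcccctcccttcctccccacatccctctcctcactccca

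TTTGAA, a CHR spelling, stood on either strand in 27 of 38 member windows (71.1%), against 18.3% of all 33469 windows and 12.3% of the 9345 windows of tested genes. CCAAT on either strand stood in 28 of 38 (73.7%), against 37.5% and 37.8%. CCAAT at 2 or more places was found in 20 (52.6%), against 11.2% and 13.4%, and TTTGAA together with at least 2 CCAAT in 17 (44.7%), against 2.12% and 1.83%. The variant TTCGAA, which reads the same on both strands, stood in 3 windows (7.89%), those of Bub1b, Top2a and Cdc25b, against 1.69% and 2.01%. None of the 3 motifs contains another. The members' windows had a median GC content of 59.3%, close to the 60% of tested genes, while all windows had 51.7%.

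TTTGAA matches began at -214 (Ccnb2) to 34 (Ndc80) from the start. Of 34 TTTGAA matches, 26 were on the gene's own strand, and 23 of 38 member windows (60.5%) had one that began between 60 bases before and 35 after the start, against 5.31% of all windows and 3.24% of those of tested genes. That region was set after the positions were seen, and in 4 further windows with TTTGAA every match lay outside it. In Cdk1 the matches began at -72 and -16 from the start, each a short way after an ATTGG at -81 and -49. Ccnb2 had CCAAT at -134, -101 and -68 and TTTGAA at -43, with a further TTTGAA at -214. Kif23 had ATTGG at -88 and TTTGAA at -79, and Plk1 CCAAT at -38 and TTTGAA at 7 after the start. Ccnb1 carried CCAAT at -82 and -50 and neither TTTGAA nor TTCGAA, the only CHR spellings searched. A match of letters is a description of the window and no measurement of binding.

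**Figure D1:**
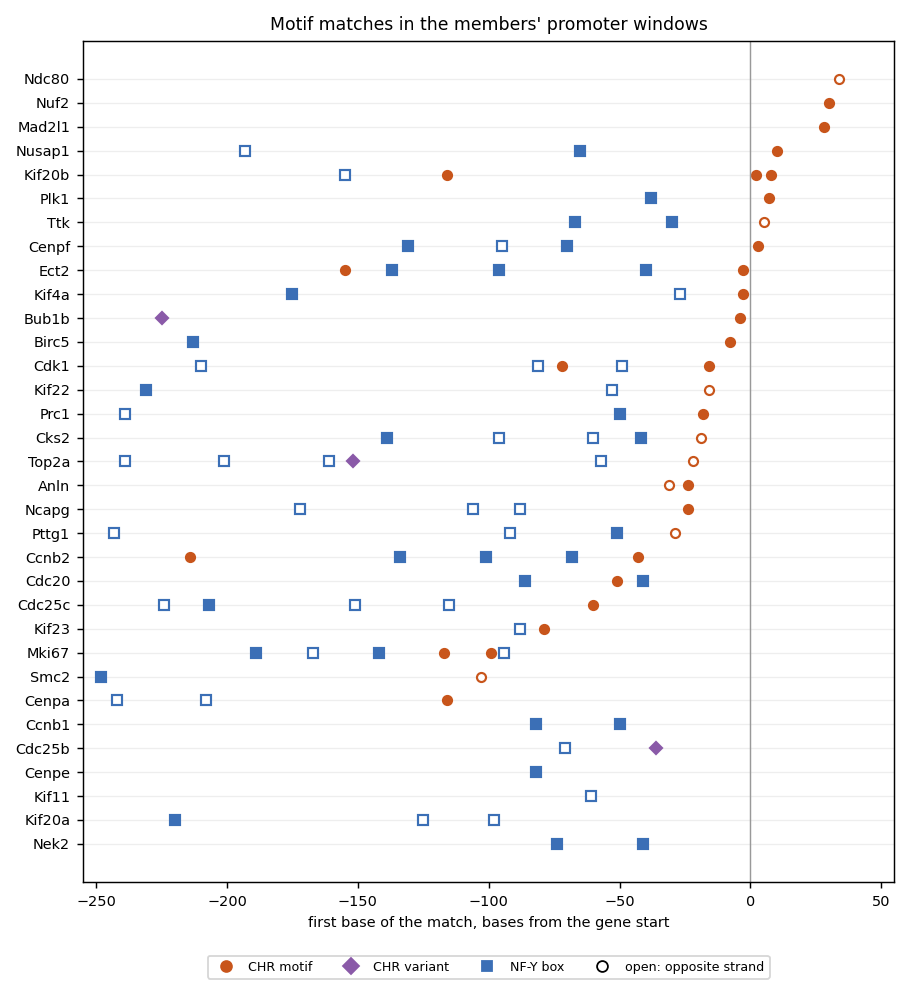
Position of each motif match (first base, in bases from the gene start, x axis) in the promoter windows of members with at least 1 match (y axis, sorted by the CHR match nearest the end of the window). Filled marks are on the gene's strand and open marks on the opposite one; 23 windows have a CHR match between 60 bases before and 35 after the start, and 4 have theirs further upstream.

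In fibrotic liver the mitosis genes were higher as a group. With marked spots kept, 28 of 34 tested members rose and 1 fell, where 15.8% of all tested genes rose and 9.12% fell, and 27 of the 28 rose at least 2-fold. With marked spots left out, 24 of 30 rose and 1 fell, beside 18.2% and 5.77% of all genes. All 25 calls of that setting were calls in the same direction with marked spots kept. The median difference was 1.95 over the 34 members and -0.07 over all genes, and 1.90 and 0.03 with marked spots left out. The members that rose did so by 1.9-fold (Cdc20) to 7.59-fold (Ccnb2, which passed the filter through the fibrosis arrays only). All 3 fibrosis values lay above all 3 normal values in 31 of 34 members, against 22.1% of all genes, and 1 member lay wholly below, against 20.9%.

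Most members were measured above background in both groups. Of the 34 tested members, 30 were clear of background in all 6 livers, 3 passed through the fibrosis arrays only (Ccnb2 and Cenpa, above background on 2 of 3 normal arrays, and Cenpf, on 1), and 1 (Nek2) through the normal arrays only. In a liver block, more dividing cells and more of each RNA per dividing cell cannot be told apart. Quantile normalization, the array median and normexp background correction each ended the calls of Cdc20, Cenpa, Kif20b and Pbk. The rats are separate animals, and with 3 against 3 an exact permutation test of a single value could not go below 0.1, so p-values come from the model over all genes.

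**Figure D2:**
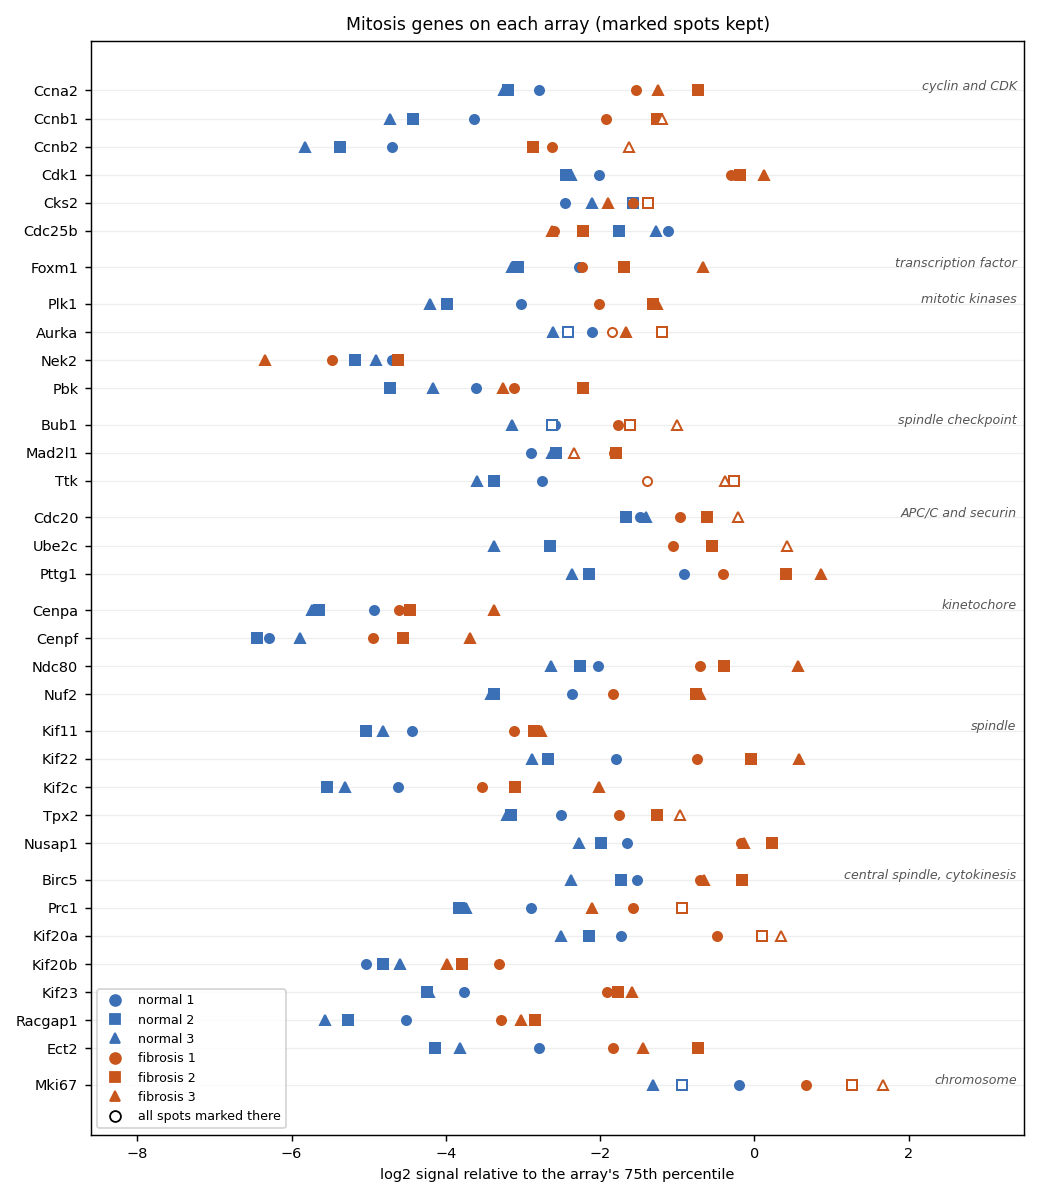
Signal of each of the 34 tested members (y axis, grouped by role) on the 6 arrays, as log2 relative to the array's 75th percentile (x axis), with marked spots kept. Circles, squares and triangles are replicates 1, 2 and 3, blue normal and orange fibrosis, and open marks are arrays on which every spot of the probe was marked; the orange marks lie right of the blue ones in 31 members, and left of them in Cdc25b.

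The cyclins and their kinase rose. Cdk1, the kinase that starts mitosis, read -2.01, -2.44 and -2.38 on the normal arrays and -0.30, -0.19 and 0.13 on the fibrosis arrays. Its difference was 2.16 ± 0.24, a 4.45-fold rise (limma adjusted p = 0.000527), and the replicates of each group lay close together (SD 0.23 in both). Ccnb1, cyclin B1, its main partner, read -3.64, -4.43 and -4.72 in normal and -1.92, -1.26 and -1.20 in fibrotic liver, 6.97-fold higher (2.8 ± 0.35, adjusted p = 0.000811). Ccnb2, cyclin B2, read -4.70, -5.37 and -5.82, then -2.62, -2.87 and -1.63 after ligation. Its difference was the largest of any member with marked spots kept, at 2.92 ± 0.41 (7.59-fold, limma adjusted p = 0.00143). Ccnb2 was well above background on 2 of 3 normal arrays and passed the filter through the fibrosis arrays only. Fibrosis 3 was the highest array for both B cyclins, and its spots were marked. With marked spots left out the differences were 2.67 ± 0.40 for Ccnb1 and 2.54 ± 0.38 for Ccnb2. Ccna2, cyclin A2, which acts from DNA synthesis into early mitosis, read -2.79, -3.20 and -3.25 against -1.53, -0.73 and -1.25 (1.91 ± 0.28, 3.76-fold, adjusted p = 0.00201). None of these 4 genes had overlapping groups.

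Cks2 and Cdc25b, the other tested members grouped with the cyclins and Cdk1, did not follow. Cks2, a small subunit that binds CDK1, differed by 0.42 ± 0.29 with overlapping groups (adjusted p = 0.331). Cdc25b, a phosphatase that removes the inhibitory phosphates from CDK1, went the other way. It read -1.12, -1.76 and -1.27 on the normal arrays and -2.60, -2.22 and -2.63 on the fibrosis arrays, so that every fibrotic liver lay below every normal one. The fall of -1.10 ± 0.26 on the log2 scale (adjusted p = 0.0178) was carried by 1 of its 2 probes; the mean or the dimmer probe, the latter at -0.32, did not pass the test. The call was also lost without normal 1, normal 3 or fibrosis 1 and when arrays were scaled on the E1A control spots. Cdc25b was singled out after its values were seen.

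Foxm1, the transcription factor that drives late cell cycle genes, read -2.28, -3.07 and -3.14 in normal and -2.24, -1.69 and -0.66 in fibrotic liver. The groups did not overlap, but normal 1 and fibrosis 1 were 0.04 apart, and the difference of 1.3 ± 0.43 missed the threshold (adjusted p = 0.0593). It passed without fibrosis 1, with E1A scaling, with array weights and with the robust variance model.

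Of the mitotic kinases, Plk1, which matures the spindle poles and opens the way to cytokinesis, rose in every fibrotic liver. It read -3.03, -3.99 and -4.20 against -2.01, -1.32 and -1.26 (2.21 ± 0.37, 4.64-fold, adjusted p = 0.00358). Pbk, a kinase found in dividing cells, rose by 1.3 ± 0.38 (adjusted p = 0.0392), a call lost without normal 2, normal 3, fibrosis 1 or fibrosis 2. Aurka, Aurora A, the kinase of the spindle poles, was tested with marked spots kept only, and its 0.81 ± 0.27 missed the threshold (adjusted p = 0.0593) although its groups did not overlap. Nek2, a kinase that separates the centrosomes, differed by -0.55 ± 0.41 with overlapping groups (adjusted p = 0.382). Aurkb, Aurora B of the chromosomal passenger complex, was well above background on 1 fibrosis array and on 0 normal arrays, with values of -7.68, -7.54 and -7.31 in normal and -5.51, -6.27 and -6.42 in fibrotic liver. It has no test here.

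The spindle checkpoint genes could mostly be read with marked spots kept alone. Ttk, the MPS1 kinase that starts checkpoint signalling at unattached kinetochores, read -2.75, -3.38 and -3.60 in normal and -1.39, -0.27 and -0.38 in fibrotic liver. That made it 5.91-fold higher (2.56 ± 0.37, adjusted p = 0.00175). Bub1, a kinase that recruits checkpoint proteins to kinetochores, rose by 1.33 ± 0.29 (2.51-fold, adjusted p = 0.0123), a call lost without normal 3. Mad2l1, which encodes MAD2, the inhibitor of CDC20, differed by 0.71 ± 0.25 (adjusted p = 0.0755) and by 0.91 ± 0.28 with marked spots left out (adjusted p = 0.0533).

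The genes at the exit from mitosis rose to different extents. Ube2c, the enzyme that hands ubiquitin to the APC/C, read -2.66, -2.65 and -3.37 against -1.05, -0.55 and 0.42, 5.65-fold higher (2.50 ± 0.40, adjusted p = 0.003). Pttg1, securin, which keeps separase inactive until anaphase, rose by 2.09 ± 0.46 (4.27-fold, adjusted p = 0.0123), with a wide spread among normal livers (SD 0.78), and its call was lost without normal 2 or normal 3. Cdc20, the activator of the APC/C, rose less, by 0.92 ± 0.26 (1.9-fold, adjusted p = 0.0349). With marked spots left out Cdc20 had no value on fibrosis 3 and read -0.71 in place of -0.62 on fibrosis 2. The difference was then 0.68 ± 0.27 and not called (limma adjusted p = 0.112). With marked spots kept the call was lost without any one of normal 1, 2 or 3 or fibrosis 2.

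All 4 tested kinetochore genes rose. Ndc80, the outer kinetochore protein that grips microtubules, read -2.03, -2.26 and -2.64 against -0.70, -0.40 and 0.56 (2.13 ± 0.36, 4.38-fold, adjusted p = 0.00388), and its partner Nuf2 rose by 1.95 ± 0.41 (adjusted p = 0.0103). Cenpf, a large protein of the outer kinetochore, was near background in normal liver, well above it on 1 of 3 arrays, with -6.29, -6.45 and -5.89. It read -4.94, -4.56 and -3.69 after ligation (1.81 ± 0.35, adjusted p = 0.00717). Cenpa, the histone H3 variant that marks centromeres, rose by 1.28 ± 0.38 (adjusted p = 0.0423), a call lost without normal 2, normal 3, fibrosis 2 or fibrosis 3.

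The 5 tested spindle genes rose in both settings. Kif11, the motor that pushes the spindle poles apart, read -4.44, -5.04 and -4.82 in normal and -3.12, -2.86 and -2.77 in fibrotic liver (1.85 ± 0.25, adjusted p = 0.0013). Kif22, a motor that moves chromosome arms, read -1.79, -2.68 and -2.88 against -0.74, -0.05 and 0.58 (2.38 ± 0.41, adjusted p = 0.00435). Kif2c, which takes microtubules apart at centromeres, read -4.62, -5.54 and -5.31 against -3.53, -3.10 and -2.02 (2.28 ± 0.42, adjusted p = 0.00596). Thus the motors differed by 1.85 to 2.38, with no overlap between groups. Nusap1, which bundles spindle microtubules, read -1.65, -1.99 and -2.28 against -0.18, 0.23 and -0.13 (1.94 ± 0.26, adjusted p = 0.00121). Tpx2, which nucleates microtubules around chromosomes and activates Aurora A, read -2.51, -3.15 and -3.21 against -1.76, -1.26 and -0.97 (1.63 ± 0.30, adjusted p = 0.00622). Its difference was 1.45 ± 0.34 with the marked fibrosis 3 spot left out (limma adjusted p = 0.0204), where the call was lost without normal 2 or normal 3.

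The 7 tested genes of the central spindle and cytokinesis rose. Kif23, the motor of the centralspindlin complex, had the smallest p of all members: -3.77, -4.24 and -4.22 in normal and -1.91, -1.77 and -1.59 in fibrotic liver (2.32 ± 0.24, 5-fold, adjusted p = 0.000364). Racgap1, the other subunit of that complex, read -4.52, -5.27 and -5.57 against -3.28, -2.85 and -3.03 (2.07 ± 0.31, adjusted p = 0.00222). Ect2, the exchange factor that centralspindlin recruits to activate RhoA, read -2.79, -4.14 and -3.81 against -1.83, -0.73 and -1.45 (2.24 ± 0.42, adjusted p = 0.00602). The 3 genes of this chain rose by 2.07 to 2.32, and by 1.90 to 2.28 with marked spots left out. Prc1, which crosslinks the midzone microtubules, read -2.90, -3.83 and -3.74 against -1.57, -0.94 and -2.11 (1.95 ± 0.38, adjusted p = 0.00713). Kif20a, a motor that carries passenger proteins to the midzone, read -1.73, -2.14 and -2.51 against -0.49, 0.10 and 0.34 (2.11 ± 0.31, adjusted p = 0.00199), with marked spots kept only. Birc5, survivin of the passenger complex, rose by 1.37 ± 0.30 (adjusted p = 0.0121, lost without normal 3). Kif20b, a related motor, rose by 1.12 ± 0.27 (adjusted p = 0.0173), a call lost without normal 1, normal 2 or fibrosis 1.

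Mki67, the source of the Ki-67 antigen that coats mitotic chromosomes and is stained to count cycling cells, rose with each of its probes. The brightest read -0.20, -0.94 and -1.31 in normal and 0.67, 1.27 and 1.67 in fibrotic liver (2.02 ± 0.37, 4.05-fold, adjusted p = 0.00554). The 3 probes gave differences of 1.44 to 2.02. With marked spots left out another of these probes stood for it (1.90 ± 0.45, adjusted p = 0.022), and that call was lost without normal 2 or normal 3. Smc2, a condensin subunit, was well above background on 2 fibrosis arrays and 0 normal arrays, at -8.43, -7.98 and -8.07 against -5.98, -5.47 and -6.06, and was not tested. Of the 9 members with more than 1 probe, Ccna2, Cdc25b, Kif2c, Mki67 and Prc1 had more than 1 above background throughout at least 1 group. Each of these had all such probes on one side of 0. In the others a second probe was not above background throughout either group: Bub1 (0.02), Cenpf (2.22), Foxm1 (1.48) and Nek2 (0.16). For Nek2 the sign was opposite to that of the tested probe, at -0.55.

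**Figure D3:**
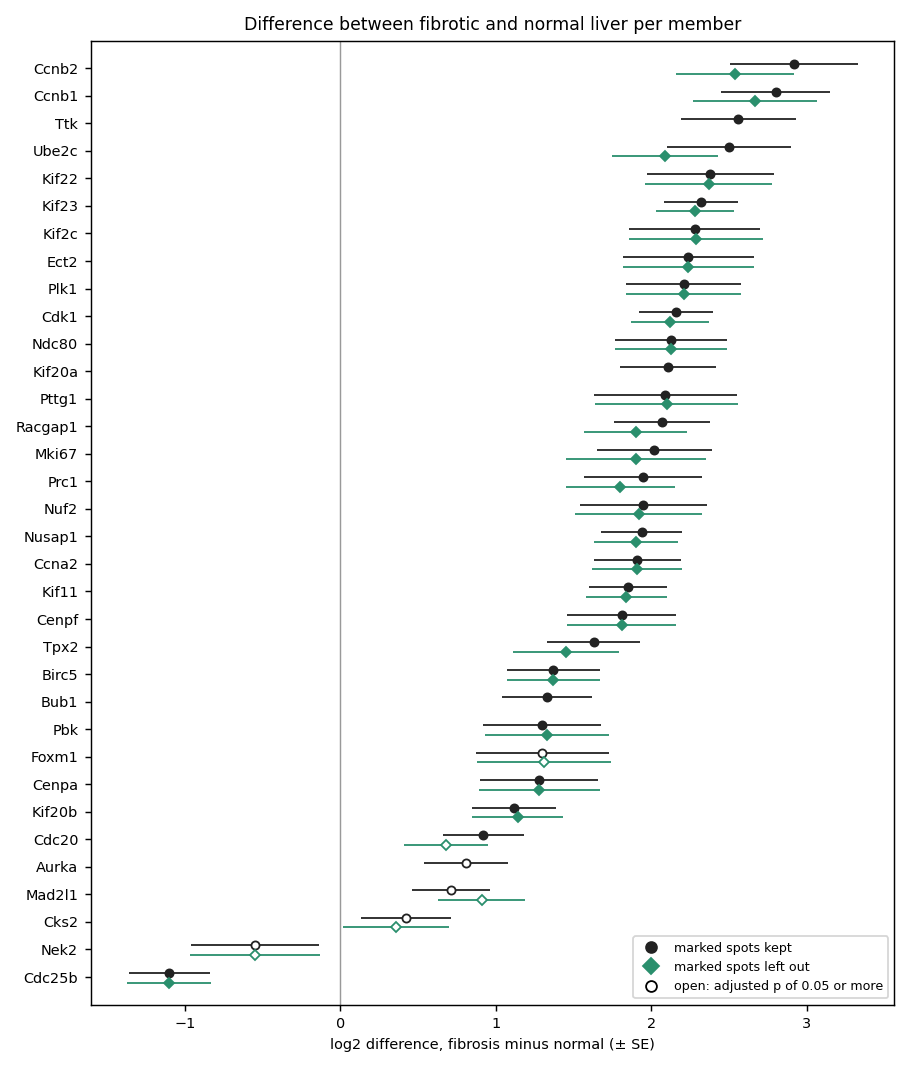
Difference between fibrotic and normal liver (log2, x axis, ± SE) for each of the 34 members tested with marked spots kept (black circles) and for the 30 tested with them left out (green diamonds); open marks have an adjusted p of 0.05 or more. The members run from Ccnb2 at 2.92 down to Cdc25b at -1.10, and the settings differ most in Ccnb2 and Ube2c among genes tested in both.

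The members followed a shared order across animals. Normal 1 was the highest of the normal arrays in 28 of 34 members (82.4%, against 40.8% of all genes), and fibrosis 1 the lowest fibrosis array in 26 (76.5%, against 30.9%). The mean over all 34 members was -2.91, -3.42 and -3.51 on the normal arrays and -1.95, -1.48 and -1.40 on the fibrosis arrays. The fibrotic liver with the lowest mean thus lay above the normal liver with the highest. Among normal livers the median SD of a member was 0.42, against 0.22 for all genes, while among fibrotic livers it was 0.42 against 0.41. Over the 10 spots of each of 8 member probes on 1 array, the median SD was 0.157 and the highest 0.434, for Kif11. By probe, the median over arrays reached 0.281 for Kif11 and 0.28 for Kif20b. Other mitosis genes shared the order among normal livers, with normal 1 highest in 36 of 52, but DNA replication genes did not: normal 3 was highest in 15 of 28 and normal 1 in 6. These shares are descriptions of 6 animals, without a test.

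**Figure D4:**
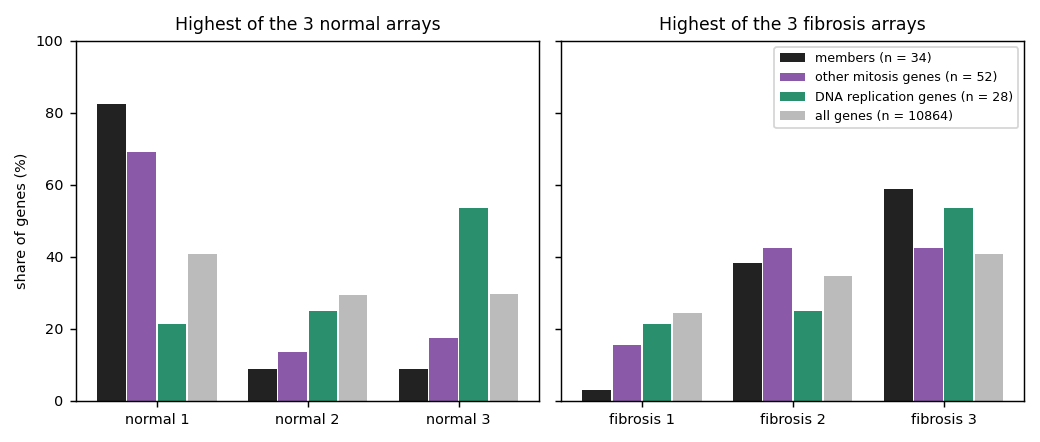
Share of genes (y axis, percent) for which each array was the highest of its group, for the members, the other mitosis genes, the DNA replication genes and all tested genes, with marked spots kept. Normal 1 is highest in 82.4% of members, 69.2% of other mitosis genes and 21.4% of replication genes.

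Other values by array are given here, and not all of them followed that order. Their part in it was not tested. Fibrosis 1 had the highest 75th percentile of signal (6401, against 3755 to 5119 on the other arrays), the quantity subtracted from each array. Normal 1 lay between the other normal arrays (3906, against 4386 and 3755). All 6 arrays lay on 1 slide, with fibrosis 1 in the row of the normal arrays and fibrosis 2 and 3 in the other row. Within that row, fibrosis 1 stood above all 3 normal arrays in 32 of 34 members (33.7% of all genes), by a median of 1.52 over the normal mean. The other row held fibrosis only, so a fit with the row as a block rests on that same contrast. Fibrosis 2 and 3 stood above the normal mean by medians of 2.08 and 2.11. Of 8 marker lists for cell types of the liver, 5 had their lowest normal mean on normal 1: hepatocyte (2.49, against 2.86 and 2.90), macrophage (0.49, against 1.00 and 0.68), cholangiocyte (-4.89, against -4.55 and -4.68), lymphoid (-3.76, against -3.02 and -3.20) and neutrophil (-5.85, against -5 and -5.14). In the other lists normal 1 was the highest normal array: stellate cell or myofibroblast (-2.04, against -2.08 and -2.35), erythroid precursor (-0.63, against -0.73 and -0.79) and endothelial (-1.16, against -1.21 and -1.19). The erythroid precursor mean read -1.36, -1.13 and -0.49 on the fibrosis arrays, lowest on fibrosis 1 and highest on fibrosis 3, like the member mean.

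Markers of other cell types moved with the groups. The mean of 11 matched cholangiocyte markers was -4.89 to -4.55 in normal and -1.09 to -0.49 in fibrotic liver, and that of 10 stellate cell or myofibroblast markers -2.35 to -2.04 and -0.49 to 0.32. The 10 hepatocyte markers, all above background on all 6 arrays, had a mean of 2.49 to 2.90 in normal and 1.13 to 1.40 in fibrotic liver; 2 of 10 were called lower, the median difference was -0.84, and Cyp2c11 was lowest at -7.25. The neutrophil list, with Elane not above background, was at -5.85 to -5 and -4.25 to -3.10. Lists for macrophages (0.49 to 1.00 and 0.84 to 1.16), lymphoid cells (-3.76 to -3.02 and -3.49 to -3.22), erythroid precursors (-0.79 to -0.63 and -1.36 to -0.49) and endothelium (-1.21 to -1.16 and -1.72 to -1.09) overlapped between the groups. The part of any of these cells in the mitosis genes was not tested.

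Genes of mitosis outside the 44 rose in part. Of 73 further mitosis genes, 52 were tested with marked spots kept, 27 rose and 0 fell in limma (3 were lower at an unadjusted p under 0.05), where 15.8% of all genes rose and 9.12% fell. Their median difference was 0.97. Without normal 2 or normal 3 the count was 15 or 14, where 11.8% or 10.1% of all genes rose. With marked spots left out 22 of 42 rose (18.2% of all genes), 13 without normal 2 (14% of all genes) and 12 without normal 3 (13.5%). Quantile normalization left 14, of which 3 were lower, where 22.6% of all genes were called. Among the 22, Cdca8, Mastl and Cenpi were well above background on 0 normal arrays and Espl1 on 1. These genes passed the filter through the fibrosis arrays only. Cdca8, borealin of the passenger complex, was not well above background on any normal array and rose at least 4.08-fold. It passed the filter through the fibrosis arrays only, and its limma adjusted p of 0.00333 is for the measured values, not for that bound. Espl1, separase, which cuts cohesin once securin is gone, read -5.75, -6.39 and -6.87 against -4.39, -3.66 and -3.39 (2.53 ± 0.37, adjusted p = 0.00192), and was well above background on 1 of 3 normal arrays only. Spag5, astrin of the spindle, read -4.16, -5.33 and -5.45 against -3.21, -2.68 and -1.45 (2.53 ± 0.51, adjusted p = 0.00851).

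The core of the APC/C, in contrast to its partners Ube2c and Cdc20, gave few calls, though the difference between lists was not tested. Of 15 tested subunits and regulators 1 rose and 0 fell, where 15.8% of all genes rose, with a median of 0.26, while 3 had an unadjusted p under 0.05. The gene that rose was Fbxo5, the APC/C inhibitor EMI1, at 1.06 ± 0.27 (limma adjusted p = 0.0245). Its call was lost without normal 2, normal 3 or fibrosis 1, and with marked spots left out 0 of 9 were called in limma, 1 having an unadjusted p under 0.05. Of 12 tested MuvB, MYB, E2F, retinoblastoma family and NF-Y genes, 2 rose and 1 fell, near the 15.8% and 9.12% of all genes, with a median of -0.44. Mybl2, which encodes B-MYB, rose by 1.55 ± 0.31 (adjusted p = 0.00851, above background on 2 of 3 normal arrays) and E2f1, an activator of the G1 to S step, by 1.06 ± 0.30 (adjusted p = 0.0371). Rb1, the retinoblastoma repressor, read -1.09, -1.01 and 0.14 against -1.43, -2.78 and -3.68, a fall of -1.98 ± 0.57 with marked spots kept only (adjusted p = 0.0375). Without any one of normal 1, 2 or 3 or fibrosis 2, 1 call was left in that list, and with the array median as scale 6 of 12 were lower and 1 higher.

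DNA replication genes had a smaller median difference. Of 28 tested 9 rose and 0 fell in limma (1 was lower at an unadjusted p under 0.05), where 15.8% of all genes rose and 9.12% fell. Their median was 0.79 beside the members' 1.95. Without normal 1 the count was 5 and without normal 2 it was 3, where 12.4% and 11.8% of all genes rose. With marked spots left out 3 of 19 rose, beside 18.2% of all genes. In that setting 1 was left without normal 1 or normal 2, where 16.5% and 14% of all genes rose. Gmnn, geminin, the brake on re-licensing of origins, rose by 1.60 ± 0.27 (adjusted p = 0.00392), Tk1, thymidine kinase, by 1.46 ± 0.28 (adjusted p = 0.00688) and Mcm3, a subunit of the replicative helicase, by 1.39 ± 0.25 (adjusted p = 0.00478). Of 6 G1 cyclins, kinases and Myc 0 were called in limma and 2 had an unadjusted p under 0.05; 1 was called without normal 3, fibrosis 1 or fibrosis 2. Ccnd1, cyclin D1, had the smallest p, at 1.69 ± 0.54 (adjusted p = 0.0541).

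Among the CDK inhibitors 2 were called higher, and 1 of them in both settings. Cdkn2a, the locus of p16 and ARF, read -8.21, -8.38 and -8.12 on the normal arrays, none of them well above background, and -4.49, -4.08 and -4.34 on the fibrosis arrays, at least 7.34-fold higher. It passed the filter through the fibrosis arrays only. Its limma adjusted p of 3.12e-05 is for the measured values, with normal readings not clear of background, and not for that bound. Cdkn1a, p21, differed by 1.54 ± 0.33 with marked spots kept (adjusted p = 0.0122), a call lost without normal 2, and by 0.20 ± 0.23 with them left out (adjusted p = 0.584). That is 2 of 7 tested inhibitors with marked spots kept, where 15.8% of all genes rose, and 1 of 6 with them left out, where 18.2% did; 0 fell in limma, and 3 of the 7 had an unadjusted p under 0.05.

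**Figure D5:**
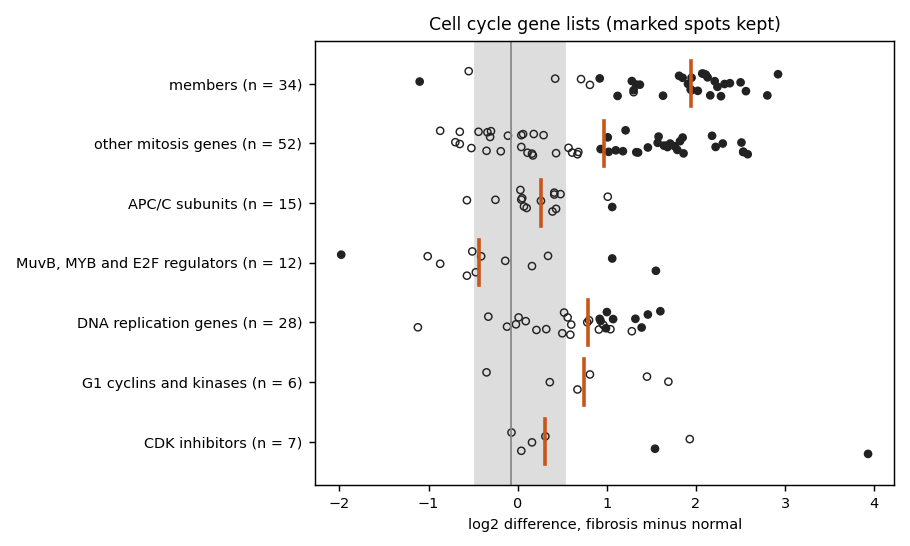
Difference between fibrotic and normal liver (log2, x axis) of each tested gene in the members and in 6 other cell cycle lists (y axis), with marked spots kept. Filled points have an adjusted p under 0.05, the orange bar is the list's median, and the grey band and line are the interquartile range and the median of all genes; the members' median of 1.95 is the furthest right, and that of the MuvB, MYB and E2F regulators, -0.44, the furthest left.

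Most tested members rose with or without TTTGAA in their window, where 15.8% of all genes rose with marked spots kept. Of 20 tested members whose window holds TTTGAA, 18 rose, with differences from 0.42 (Cks2) to 2.92 and a median of 1.98. Of 8 whose window lacks it, 5 rose, with a median of 1.59 and a range of -1.10 (Cdc25b) to 2.8 (Ccnb1), and 5 of 6 members without a window rose. Members with and without these letters thus overlapped over most of their range, and these counts carry no test. CHR spellings other than TTTGAA and TTCGAA were not searched, so a window without TTTGAA is not shown to lack a CHR.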

How the data were processed

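The deposited files give linear spot intensities written by Agilent Feature Extraction 11.5.1.1, with background subtracted in the processed signal, per the file headers. No step between arrays is recorded in the files. The log2 of the processed signal was taken, minus the array's own 75th percentile over 58717 non-control spots. Spots marked non-uniform or outlying from the other spots of their probe were kept in one setting and left out in the other, spots of a probe were averaged, and the probe with the highest mean stood for a gene. The test needed at least 0.5 of a probe's spots well above background on every array of 1 group, and values on at least 2 arrays per group. Marked spots were 18.8% to 35.2% of an array, and 67.2% to 78% of spots were well above background; 0 were saturated. The number of arrays limits the precision.

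Accessions were matched to the RefSeq gene table of GRCr8, which named 18355 of 30367 probes. Groups were compared with limma 3.58.1 in R 4.3.3 (lmFit and eBayes, Benjamini-Hochberg over all genes tested), tested on simulated data. For probes dim on every normal array, the fold is a lower bound against, per array, the higher of its own value and the lowest signal well above background. Members called in either setting have their array values printed, up to 20 by smallest p with at least 1 per role. Other members are given by their difference, and up to 3 called genes per further list. The members, lists and tests were chosen with earlier results of these data known.

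Alternatives were quantile normalization, array median, cyclic loess or E1A control spots in place of the 75th percentile, normexp on median signals with an offset of 50 (mean signals were not used), other filters, probe choices and variance models, a 2-fold minimum, and leaving out each array.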

Additional observations from a re-analysis of the deposited data

How the results depend on the processing

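Apart from quantile normalization of the remaining spots (given last), 18 to 26 members were called with marked spots left out (25 of 30 as reported). With them kept 22 to 32 were called (29 of 34), and no called member changed direction. The lowest counts were 18 of 22 without fibrosis 1 and 18 of 29 without normal 3, where 20.4% and 15.7% of all genes were called. With marked spots kept the lowest was 22 of 34, without normal 3 (13.3% of all genes). Array weights gave 26 of 30 and 32 of 34, where 35.5% and 39% of all genes were called. Leaving out each array gave 18 to 25 members called with marked spots left out and 22 to 30 with them kept, with medians of 1.74 to 2.09 and 1.78 to 2.18. It gave 1032 to 2016 genes called in all with marked spots left out and 1459 to 3223 with them kept (1691 without normal 2 and 1459 without normal 3). With marked spots left out, 16 of 84 (without normal 2) to 25 of 84 (without fibrosis 3) other genes of the cell cycle were called. Of all genes, 16.9% and 27% were called there. Alternatives for these other genes were chosen after seeing the data. The median over members was 1.54 with the array median, 1.56 with normexp and 1.55 with quantile normalization with marked spots left out, and 1.59 with the array median and with normexp with them kept. Array weights raised the genes called with marked spots kept to 4235, of which 2236 were higher. Quantile normalization applied after the marked spots were removed was chosen after seeing the data. It left 6 of 30 members and 8 of 86 other cell cycle genes called, where 835 of 7433 genes (11.2%) were called. The median over members was 1.34 there, and Cdc20 was at -0.12. Cks2 was at -0.01 with the array median and marked spots left out. The cause was not tested.

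Scaling moved the split of calls over all genes: with marked spots left out 75.9% were higher, which quantile normalization made 59.7%, the array median 46.2% and E1A spots 90.6%, and the median of all genes went from 0.03 to -0.13, -0.33 and 0.24 respectively. With marked spots kept the shares were 63.4%, 56.6%, 34% and 85.4%. Of 25 members called with marked spots left out, 6 kept their call under every alternative that gave them a value and 19 lost it in at least 1; with marked spots kept 21 of 29 kept it and 8 did not. No paired analysis was possible because the rats are separate animals and the replicate numbers, given in the order of the records, pair none of them. Dim signal kept Aurkb and Smc2 from a test.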
